A study of Mus musculus with 4 samples.

Results

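The 7 genes studied belong to MHC class II antigen presentation, and Cd74, H2-Aa, H2-Ab1, H2-Eb1, H2-DMa, H2-DMb1 and Ciita were followed in mouse hearts after myocardial infarction (MI). They were found by symbol, and 7 of 7 were present in the tables. Spatial transcriptomes (Visium, in which barcoded spots capture the polyadenylated RNA of the tissue above them) were available for 4 sections of the adult heart, 1 each at day 1, day 4, day 7 and day 14 after the LAD coronary artery of the left ventricle was tied off for good. The mice were females of the outbred ICR stock, 12 weeks of age, and every section carried the same injury, so no sham or uninjured section entered the comparison. With 1 section per day, day, mouse and section cannot be told apart, and differences between days were given with counting intervals and no test. Within each section the spots were ranked on the share of their UMIs (unique molecular identifiers, counted molecules) that came from the cardiomyocyte genes Myh6 and Myl2 and cut into 4 bins of equal number, Q1 to Q4. Q1 held the spots with the lowest share and Q4 those with the highest.

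MHC class II molecules carry peptides from the endosomal pathway to the surface of antigen-presenting cells, where CD4 T cells read them. H2-Aa and H2-Ab1 encode the α and β chains of the I-A molecule, and H2-Eb1 encodes the β chain of the I-E molecule. Cd74 encodes the invariant chain, which fills the groove of new class II molecules and guides them to the endosome. H2-DMa and H2-DMb1 encode the DM dimer, which exchanges the last fragment of the invariant chain for peptide. Ciita is the transactivator that switches these genes on, in dendritic cells and B cells from their development and in macrophages after interferon gamma. In the infarcted heart, class II is known mainly from macrophages and dendritic cells, which infiltrate the dying muscle and the forming scar.

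The 5 members with H2 names lie together in the class II region of chromosome 17, H2-DMa at chr17:34119541-34139101, H2-DMb1 at chr17:34153072-34160230, H2-Ab1 at chr17:34257689-34269419, H2-Aa at chr17:34282744-34287823 and H2-Eb1 at chr17:34305867-34316674 (mm10, GENCODE vM21). Ciita lies at chr16:10480059-10528418. CIITA does not bind DNA itself and acts through factors that sit on a conserved pair of elements called the X box and the Y box. The letters CTNGNAAC for an X box core and TGATTGG for a Y box core were searched in the 250 bases before the annotated starts of RefSeq genes (GRCm38.p6). Both motifs were searched on both strands and do not overlap each other, and a pair was counted where the X letters preceded the Y letters by at most 40 bases on the gene's strand. Of the members, 4 had such a window, and 3 of these held the pair, H2-Aa, H2-Eb1 and H2-DMb1. Of the other class II chains searched, H2-Oa, H2-DMb2 and H2-Eb2 did not hold the pair. H2-Ob, which encodes a chain of the DO inhibitor of DM, held it. These stretches are shown because they are a shared feature of 3 members whose levels are given below, and the capitals mark the X and then the Y letters:

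H2-Aa, chr17:34287857-34287917, minus strand: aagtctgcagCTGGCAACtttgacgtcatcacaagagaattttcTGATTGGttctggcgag

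H2-Eb1, chr17:34305763-34305822, plus strand: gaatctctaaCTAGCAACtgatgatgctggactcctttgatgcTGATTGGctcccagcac

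H2-DMb1, chr17:34153084-34153144, plus strand: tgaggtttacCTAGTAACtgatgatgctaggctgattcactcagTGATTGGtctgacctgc

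H2-Ob, chr17:34238805-34238862, plus strand: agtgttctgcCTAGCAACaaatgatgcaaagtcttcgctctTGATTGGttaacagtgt

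The X letters began 84, 94, 97 and 90 bases before the start in this order, and the gap to the Y letters was 26, 25, 26 and 23 bases. The pair was present in 16 of 32851 windows (0.0487%), which belonged to 14 genes, 10 of them outside class II. The X letters were present in 10.9% of windows and the Y letters in 7.23%. Neither window of H2-DMa held these letters. Distances are from the RefSeq start, which for H2-DMb1 lies inside the gene as GENCODE draws it.

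The 4 sections held 9102 spots. The 1599 spots with over 1% of UMIs from hemoglobin genes were left out, and the remaining 7503 spots held between 9292678 (day 7) and 15713779 (day 14) UMIs per section. The members gave 1773 UMIs at day 1, 3669 at day 4, 3157 at day 7 and 1721 at day 14. Barcodes of these slides mark positions and recur between slides, and 1332 were present in all 4 sections. The label of heart tissue was borne out by the cardiomyocyte genes Myh6, Myl2, Tnnt2, Tnni3 and Actc1, which together made up between 32995 and 43934 CPM. A level below is given in CPM, the number of UMIs per 1000000 UMIs of the remaining spots, with its 95% Poisson interval, which covers counting error only. These levels are not divided by transcript length and were compared within a gene. In sections of tissue, fewer cells of a type and less RNA per cell cannot be told apart.

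Over whole sections, 6 of the 7 genes stood highest at day 7, and H2-Eb1 stood highest at day 14. The level of the summed members was 148.3 CPM (141.5 to 155.4) at day 1, 255.7 (247.5 to 264.1) at day 4, 339.7 (328.0 to 351.8) at day 7 and 109.5 (104.4 to 114.8) at day 14. None of these intervals overlap. The section of day 7 thus held 2.29 times the class II CPM of day 1 (2.16 to 2.43), and that of day 14 held 0.738 times (0.691 to 0.789). The sections also differed in tissue. The fibroblast genes Col1a1, Col1a2, Dcn, Pdgfra and Postn summed to 985.3, 6561, 6812 and 1305 CPM at days 1, 4, 7 and 14. Levels of whole sections therefore do not compare like tissue, and the part of this in the differences between days was not tested.

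The chains of I-A followed a like course. H2-Aa had 48.6, 100.3, 121.2 and 37.7 CPM at days 1, 4, 7 and 14. H2-Ab1 had 52.6, 99.2, 114.9 and 32.3. Day 4 was 2.06 and 1.89 times day 1 for the 2 genes, and day 7 was 1.21 (1.12 to 1.31) and 1.16 (1.07 to 1.25) times day 4. The invariant chain Cd74 followed another course, with 32.4, 37.6, 75.5 and 16.7 CPM. Its level at day 4 was 1.16 times that of day 1 (1.02 to 1.33), and at day 7 it was 2.01 times that of day 4 (1.79 to 2.25). Cd74 therefore gave 0.379 UMIs per H2-Ab1 UMI at day 4, against 0.615 at day 1, 0.657 at day 7 and 0.519 at day 14.

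The genes of the DM dimer were sparse. H2-DMa had 73, 121, 104 and 74 UMIs, or 6.11, 8.43, 11.2 and 4.71 CPM. H2-DMb1 had 83, 90, 107 and 41 UMIs, or 6.94, 6.27, 11.5 and 2.61 CPM, so that its day 1 and day 4 levels lay within each other's counting intervals. Of 451 stretches of 50 bases in the last 500 bases of the H2-DMb1 transcript, 92 also occur in its neighbour H2-DMb2, which had 95 UMIs in all sections, and reads there could have been assigned to either or dropped. No such stretch of the other 6 members was shared with another gene. Ciita had 8, 25, 30 and 9 UMIs, too few for the test below, and its level at day 7 was 4.82 times that at day 1 (2.16 to 12.2).

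**Figure D1:**
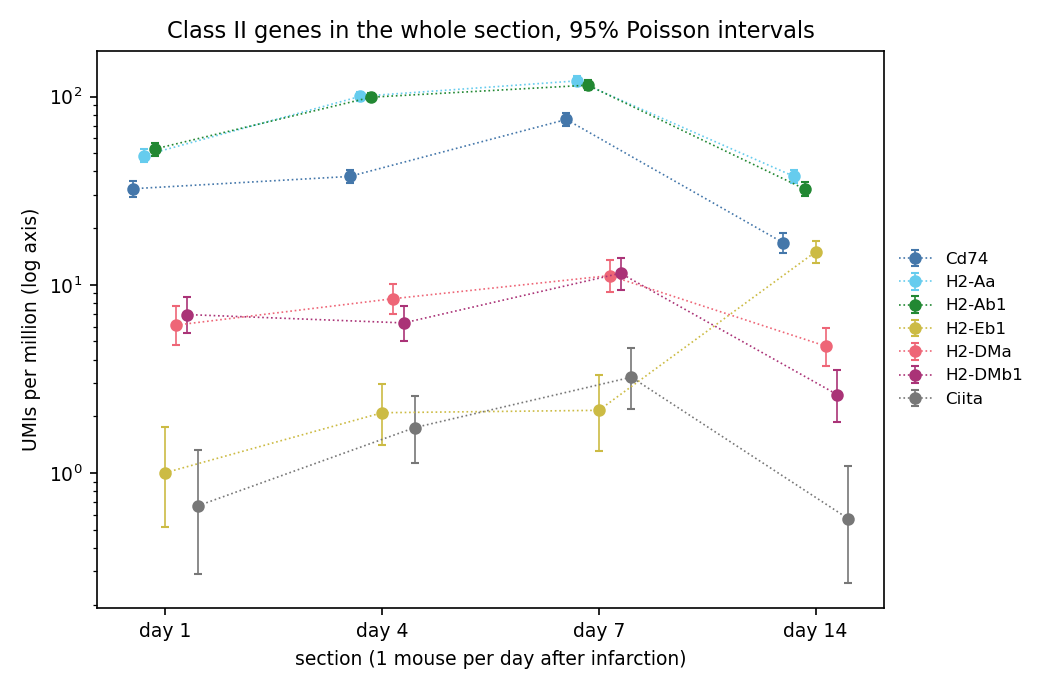
CPM of each of the 7 class II genes (log axis) in the whole section at days 1, 4, 7 and 14, with 95% Poisson intervals; dotted lines join the points of a gene and each day is 1 section. H2-Aa, H2-Ab1, Cd74, H2-DMa, H2-DMb1 and Ciita were highest at day 7, while H2-Eb1 went from 2.15 at day 7 to 15.0 at day 14.

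Within every section, class II transcripts were concentrated where cardiomyocyte transcripts were scarce. Q1 held 55.0% of the class II UMIs of the day 1 section, 38.8% at day 4, 41.8% at day 7 and 44.3% at day 14. The summed level in Q1 was 356.6, 516.6, 897.1 and 366.1 CPM at days 1, 4, 7 and 14, and in Q4 it was 52.3, 92.7, 111.3 and 75.9. The lowest Q1 was thus above the highest Q4. Myh6 and Myl2 made up 0.773%, 0.271%, 0.229% and 1.53% of the UMIs of Q1 at days 1, 4, 7 and 14. Levels of Q1 at different days therefore do not compare like tissue. Over the 16 libraries of section and bin, edgeR's quasi-likelihood test with the section as a block called 6 of the 6 members tested higher in Q1 than in Q4, and Ciita was under the filter of 100 UMIs. Of all 11621 genes tested, 27.5% were called higher and 25.0% lower, and the median log2 difference was 0.07. The median of the 6 members was 1.91. Scaled to total UMIs alone, without TMM factors, 6761 genes were called higher and 1240 lower against 3201 and 2904, and the median of all genes moved to 0.71. The 6 members were called higher with either scaling.

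The invariant chain had 83.7, 80.1, 234.6 and 61.4 CPM in Q1 at days 1, 4, 7 and 14, against 8.6, 12.1, 21.1 and 11.7 in Q4. The log2 difference in the fit was 2.34 ± 0.31 (SE, adjusted p = 4.0e-05). The fit used TMM factors, which ran from 1.05 to 1.62 in Q1 and from 0.824 to 0.946 in Q4. The CPM were scaled to total UMIs alone. The log2 differences here and below are therefore on another scale than the CPM beside them. H2-Aa had 113.3, 186.3, 302.0 and 124.3 against 21.3, 41.9, 39.2 and 24.5, a log2 difference of 1.87 ± 0.27 (adjusted p = 7.39e-05). H2-Ab1 had 124.6, 205.9, 280.2 and 100.8 against 16.5, 33.7, 43.4 and 23.3, a log2 difference of 1.95 ± 0.25 (adjusted p = 2.93e-05). For these 3 genes no Q1 overlapped any Q4.

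H2-DMb1 had the largest log2 difference of the members, 2.78 ± 0.46 (adjusted p = 0.000158), with 51, 56, 60 and 23 UMIs in Q1 against 4, 3, 8 and 10 in Q4. Its partner H2-DMa had 34, 44, 34 and 35 UMIs against 11, 12, 11 and 8, a log2 difference of 1.76 ± 0.33 (adjusted p = 0.000363). H2-Eb1 had 8, 10, 9 and 105 UMIs against 2, 3, 1 and 46, a log2 difference of 1.74 ± 0.43 (adjusted p = 0.00324). Most of its counts thus came from the day 14 section. Without that section H2-Eb1 fell under the filter and the other 5 members were called, beside 3032 of 11082 genes. Ciita entered where genes with at least 1 UMI were tested. Then 7 of 7 members were called higher, beside 3325 of 19176 genes. The UMIs of Ciita were 3, 12, 15 and 3 in Q1 against 0, 1, 0 and 5 in Q4.

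**Figure D2:**
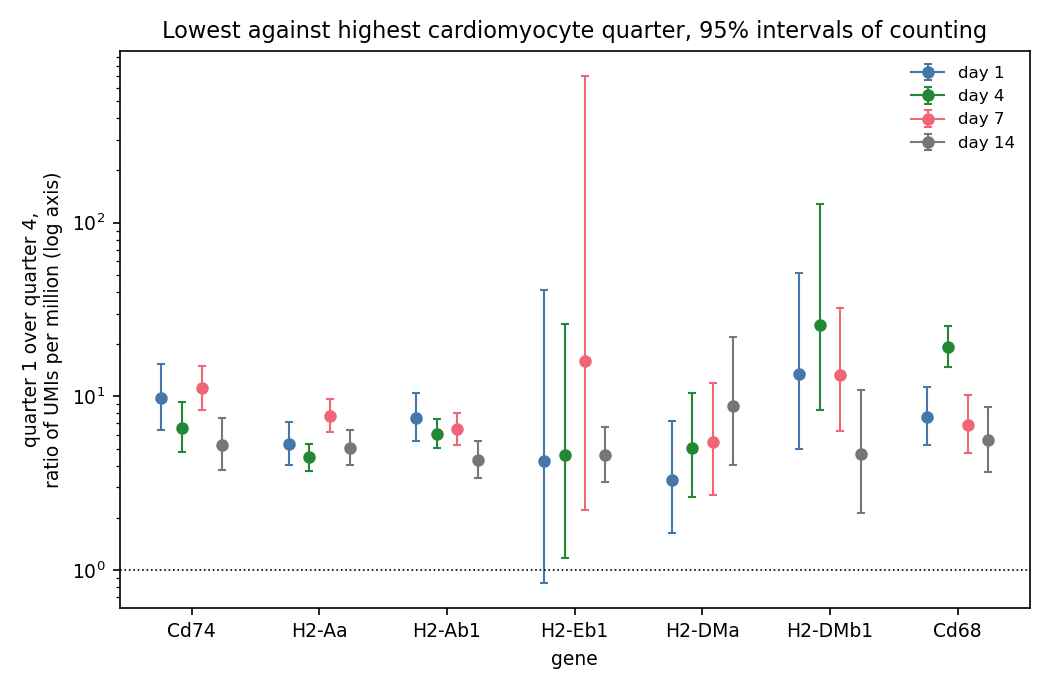
Ratio of CPM in Q1 over Q4 (log axis) for 6 class II genes and the macrophage gene Cd68, with 95% intervals of counting, by section; the dotted line marks a ratio of 1. All ratios were above 1, and Cd68 at day 4, at 19.2, lay above the day 4 ratios of H2-Aa (4.45), H2-Ab1 (6.11) and Cd74 (6.61).

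Class II was also higher in the second bin, Q2, than in Q4, but not in the section of day 14. In Q2 the summed level was 157.3, 366.3, 432.0 and 72.2 CPM at days 1, 4, 7 and 14, which was 3.01, 3.95, 3.88 and 0.951 times that of Q4. The interval of the ratio at day 14, 0.814 to 1.11, lay below those of the other days, of which the lowest began at 2.50. At day 14 the muscle share itself was nearly level over Q2 to Q4, with Myh6 and Myl2 at 2.07%, 2.27% and 2.56% of UMIs, while at day 4 it was 1.35%, 2.06% and 2.57%. A given bin therefore did not stand for the same tissue in each section. In the fit, 4 of 6 members were called higher in Q2 than in Q4, beside 3.18% of all genes. These were Cd74 (log2 difference 1.40, adjusted p = 0.0276), H2-Aa (1.21, 0.0276), H2-Ab1 (1.24, 0.0187) and H2-DMa (1.44, 0.0286). H2-DMb1 (1.26, 0.185) and H2-Eb1 (0.40, 0.676) did not pass. These calls rested on the set of sections, and so did those of all genes. Without day 1, without day 4 or without day 7, 0 members were called. Of all genes, 2 of 11103, 0 of 10871 and 1 of 11118 were then called higher. Without day 14, 5 members were called, beside 961 of 11082 genes. Between Q3 and Q4, edgeR called 0 of the 6 members and 0 of 11621 genes (0%), with 168 genes at an unadjusted p under 0.05 (DESeq2 called 0, with 66).

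**Figure D3:**
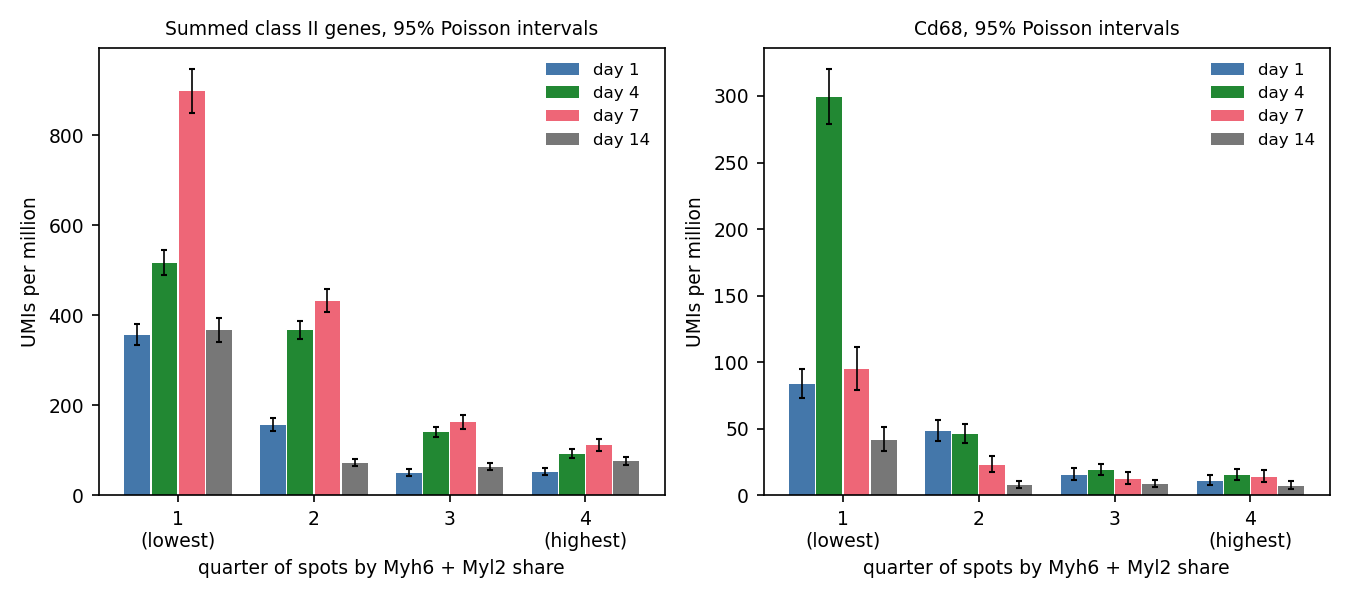
CPM of the summed class II genes (left) and of Cd68 (right) in 4 bins of spots by Myh6 and Myl2 share, with 95% Poisson intervals, by section. Class II in Q1 was highest at day 7 (897.1) and Cd68 in Q1 at day 4 (299.1), and at day 14 class II in Q2 to Q4 ran from 63.4 to 75.9.

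Class II was then set against macrophage transcripts, to ask whether both followed the same course. Cd68, a lysosomal glycoprotein of macrophages, was highest at day 4, before class II, with 38.3, 78.5, 28.6 and 12.5 CPM at days 1, 4, 7 and 14. The 10 macrophage markers listed below, summed, were also highest at day 4, with 646.9, 2100, 1548 and 554.1 CPM. Among them, C1qa, C1qb and C1qc, summed, were highest at day 7 like class II, with 169.9, 413.8, 431.0 and 162.2 CPM. Over whole sections there were 3.87 class II UMIs per Cd68 UMI at day 1 (3.49 to 4.30), 3.26 at day 4 (3.04 to 3.48), 11.9 at day 7 (10.5 to 13.5) and 8.78 at day 14 (7.57 to 10.2). Day 14 stood at 2.27 times day 1 (1.89 to 2.72) although its class II level was lower, as Cd68 was 0.326 times day 1. The lowest of the 16 libraries was Q1 at day 4, at 1.73 (1.58 to 1.88), where 825 of the 1127 Cd68 UMIs of that section lay. Q2 of the same section held 7.98 (6.77 to 9.45). At day 7, Q1 held 9.49 (7.96 to 11.4) and Q2 held 19 (14.6 to 25.1).

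The difference between Q1 and Q4 in class II per Cd68 UMI was not in 1 direction. The log2 difference was −0.16 at day 1, −1.79 at day 4, 0.24 at day 7 and −0.21 at day 14, with a mean of −0.48 ± 0.89 (SD, n = 4 sections, exact two-sided sign-flip test, p = 0.5, with 0.13 as the smallest p that 4 sections allow). Only at day 4 did the counting interval, −2.20 to −1.37, leave out 0.

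These ratios depended on which macrophage transcript stood below the line. Csf1r, the receptor of the growth factor M-CSF, gave 4.26, 3.74, 5.56 and 3.97 class II UMIs per UMI at days 1, 4, 7 and 14. Adgre1, which encodes F4/80, gave 12.8, 8.55, 12.8 and 11.6. The complement genes C1qa, C1qb and C1qc, summed, gave 0.873, 0.618, 0.788 and 0.675. In all of these, as with Cd68, the section of day 4 had the lowest value. With Csf1r and C1q, however, its interval overlapped that of day 14, and this order rested on H2-Eb1. Without H2-Eb1, day 14 was lowest, at 3.42 per Csf1r UMI against 3.71 at day 4. Per C1q UMI it was then 0.583 against 0.613. Day 4 stayed lowest with Cd68 (3.23) and Adgre1 (8.48). The excess of day 14 over day 1 was seen only with Cd68, since the ratio of day 14 to day 1 was 0.930 (0.801 to 1.08) with Csf1r, 0.906 (0.712 to 1.15) with Adgre1, 0.774 (0.708 to 0.845) with C1q and 0.862 (0.801 to 0.927) with 10 macrophage markers summed. The 10 markers were those above with Fcgr1, Lyz2, Mrc1 and Mertk. Most UMIs of their sum came from Lyz2, with 38295 in all sections, against 5983 for C1qb, the next highest. Day 7 exceeded day 1 with Cd68, 3.07 times (2.61 to 3.60), and with Csf1r, 1.3 times (1.13 to 1.5). With Adgre1 it was 1.00 times (0.808 to 1.24) and with C1q 0.903 times (0.834 to 0.977).

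In Q1, day 7 stood above day 4 with each of these: 5.49 times per Cd68 UMI (4.52 to 6.67), 2.18 times per Csf1r UMI (1.82 to 2.61), 1.98 times per Adgre1 UMI (1.58 to 2.50) and 1.52 times per C1q UMI (1.38 to 1.67). At day 1, the ratio to C1q was 1.63 in Q1 and 0.364 in Q4, while per Adgre1 UMI the values were 13.9 (10.9 to 18.0) and 11.7 (6.64 to 22.5). Neutrophil transcripts (S100a8, S100a9, Csf3r, Retnlg and Ly6g) made up 385.9 CPM in that Q1, their highest level in any library. The monocyte genes Ly6c2, Ccr2, Plac8 and Chil3 were called higher in Q1 than in Q4 over all sections. Their part in the ratios was not tested.

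**Figure D4:**
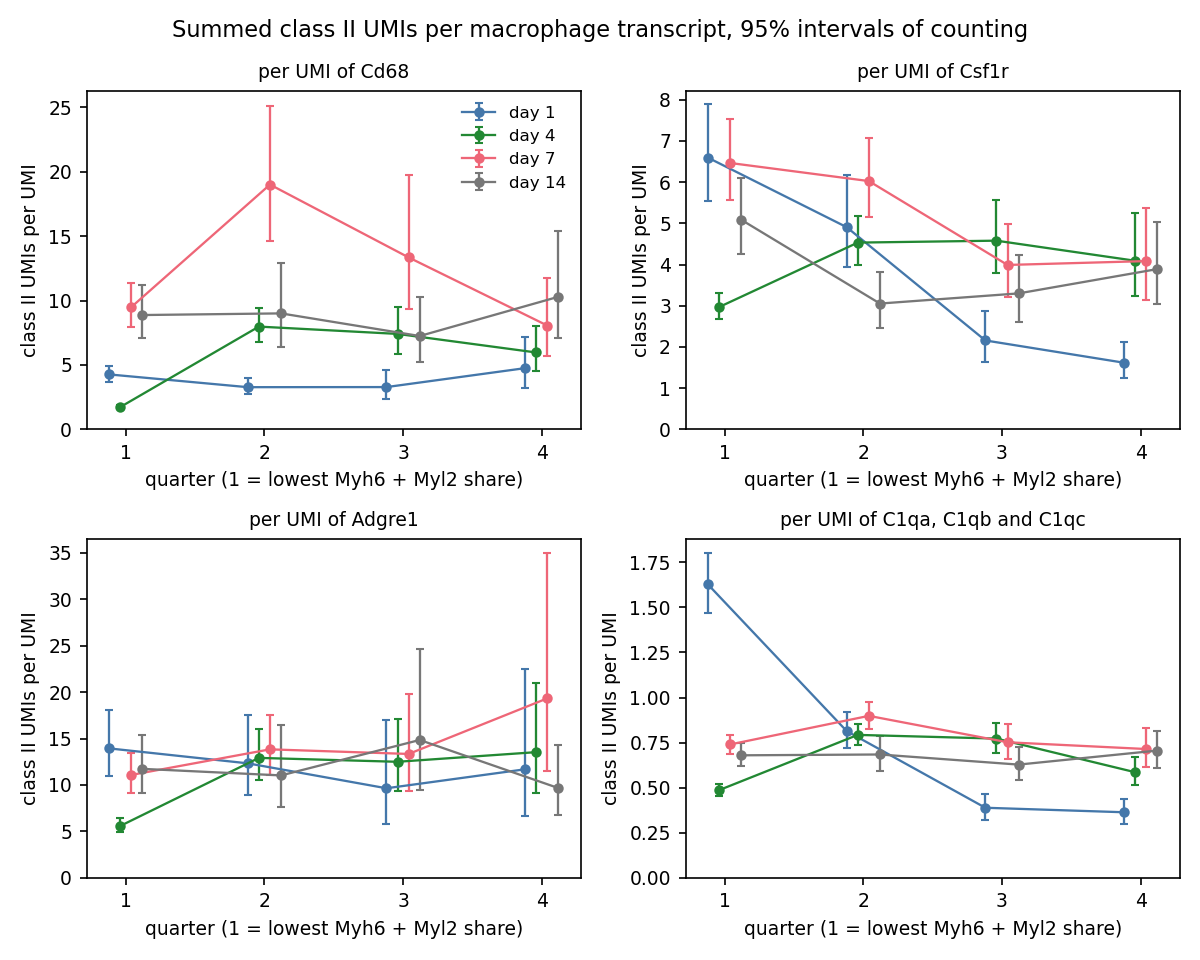
Summed class II UMIs per UMI of Cd68, Csf1r, Adgre1 and the C1q genes, by bin and section, with 95% intervals of counting. Q1 of the day 4 section was the lowest Q1 in each panel (1.73, 2.97, 5.59 and 0.486), and the fall from Q1 to Q4 at day 1 appeared with Csf1r and C1q but not with Cd68.

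H2-Eb1 departed from the other members. It had 12, 30 and 20 UMIs at days 1, 4 and 7 but 235 at day 14, which is 1.00 (0.519 to 1.75), 2.09, 2.15 and 15.0 CPM. Day 14 was 14.9 times day 1 (8.37 to 29.2), while H2-Ab1 was 0.613 times and H2-Aa 0.775 times day 1. H2-Eb1 made up 0.677%, 0.818% and 0.634% of the class II UMIs at days 1, 4 and 7 and 13.7% at day 14.

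The higher share was found in every bin of the day 14 section. Per H2-Ab1 UMI, H2-Eb1 gave 0.50, 0.406, 0.441 and 0.469 in Q1 to Q4 of that section, with overlapping intervals, whereas no bin of another section exceeded 0.0417. H2-Eb1 was detected in 201 of 2086 spots at day 14 (9.64%) with at most 4 UMIs in a spot, and in 12 of 1890 (0.635%), 29 of 1679 (1.73%) and 19 of 1848 (1.03%) spots at days 1, 4 and 7. Of the spots with an H2-Ab1 UMI, 28.4% (exact binomial interval 23.6 to 33.5) also held H2-Eb1 at day 14, against 1.58%, 2.32% and 1.93% in the other sections. Median depth per spot was 6410, 8799, 5188 and 8311 UMIs at days 1, 4, 7 and 14. Day 14 was thus shallower than day 4 but deeper than days 1 and 7. The shares of spots with H2-Eb1 were not thinned to equal depth.

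The ratio of day 14 to the median of the other days was 7.15 for H2-Eb1. For all 11621 genes the median of this ratio was 0.777, and 6 genes (0.0516%), H2-Eb1 among them, reached 7.15 or more. The other 5, named after their values were seen, were the immunoglobulin genes Ighg1, Ighg2b and Ighg2c, and Rnaset2b and 1010001B22Rik. Rnaset2b, Ighg2b and Ighg1 were already high at day 7, with 71.5, 8.18 and 3.98 CPM against 35.5, 6.75 and 4.07 at day 14. Ighg2c and 1010001B22Rik had 2.37 and 2.80 CPM at day 7 and 6.05 each at day 14. Of the 14 genes with an H2 symbol and at least 100 UMIs, H2-Ke6 was the only one other than H2-Eb1 whose highest day was day 14 (75.3 CPM, 1.05 times the median of the other days). Among transcripts of B cells and plasma cells, Igkc was also highest at day 14. Igkc had 227, 295, 336 and 1277 UMIs at days 1, 4, 7 and 14, but 1% of the spots of day 14 held 67.4% of them, against 20.9% of the H2-Eb1 UMIs. The 9 listed B cell markers, Igkc among them, summed to 334, 481, 478 and 1469 UMIs. Most of each sum was Igkc, so the sums do not show a rise of the other markers. The defining B cell genes Ms4a1 and Pax5 had 5 and 1 UMIs at day 14 and 6 and 0 at day 1. With 18 and 2 UMIs in all sections, they were too sparse to show a change in either direction. Ighm, with 437 UMIs in all sections, is not given by day here. The part of B cell and plasma cell transcripts in the H2-Eb1 level was not tested. The mouse and the day cannot be told apart for H2-Eb1.

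**Figure D5:**
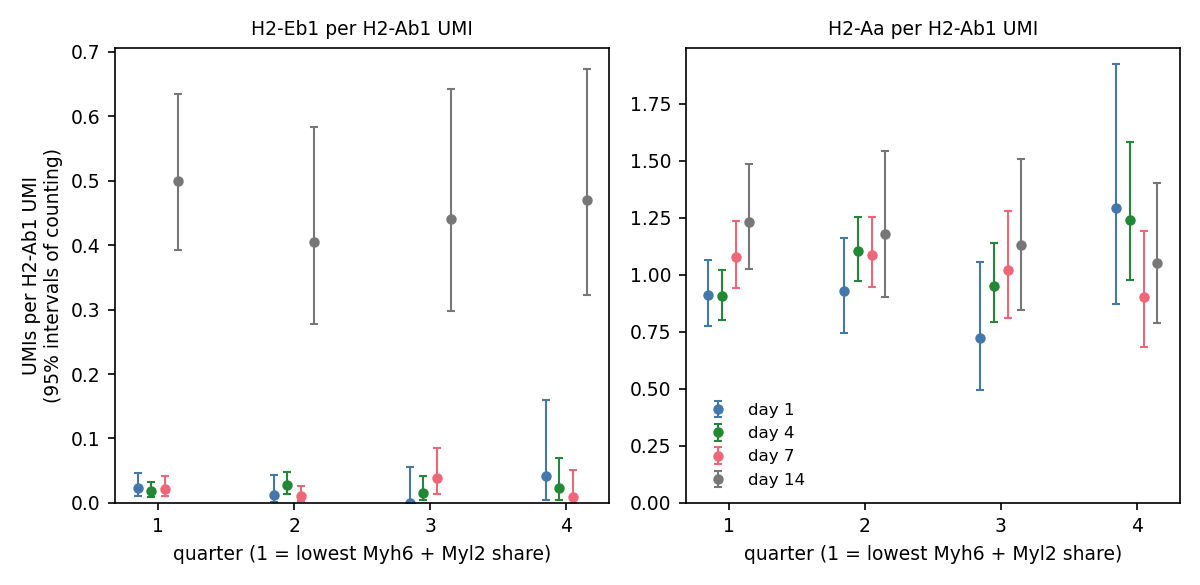
UMIs of H2-Eb1 (left) and H2-Aa (right) per H2-Ab1 UMI, by bin and section, with 95% intervals of counting. The 4 bins of the day 14 section lie between 0.406 and 0.50 for H2-Eb1 and all other bins at or below 0.0417, while the H2-Aa ratio is between 0.725 and 1.29 in every section.

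Class II counts per spot were low in most spots. At least 1 class II UMI was found in 38.7% of spots at day 1, 67.5% at day 4, 56.4% at day 7 and 37.8% at day 14. Thinned to 1000 UMIs per spot, which left out 26, 12, 61 and 155 shallower spots, the shares were 12.6%, 22.0%, 24.8% and 11.5%, so day 4 was above day 7 as read but below it at equal depth. Median depth was 6389, 6525, 2826 and 2330 UMIs per spot in Q1 and 5971, 9221, 5515 and 8278 in Q4. The thinned shares were 28.1%, 38.6%, 49.6% and 31.3% in Q1 and 4.64%, 8.98%, 9.59% and 7.83% in Q4. The richest spot held 59 class II UMIs, in Q2 of day 7. The 1% of spots with the most class II UMIs held between 9.70% (day 4) and 14.7% (day 14) of them, and the 10% with the most held between 45.1% (day 4) and 58.3% (day 14). The 10% of spots richest in C1q UMIs held between 36.2% (day 4) and 47.3% (day 14) of those. For all UMIs the range was 15.8% (day 4) to 16.7% (day 7).

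Levels of the members were closely correlated across libraries, except those of H2-Eb1. Over the 16 libraries, Pearson's r of log2(CPM + 1) was 0.99 for H2-Aa with H2-Ab1 and 0.97 for Cd74 with H2-Ab1, while H2-Eb1 reached between 0.19 and 0.30 with the other members. After each section's mean was subtracted, H2-Eb1 reached 0.91 with H2-Aa and 0.88 with H2-Ab1. Across single spots within sections, the mean r was 0.40 for H2-Aa with H2-Ab1, 0.35 for Cd74 with H2-Aa and 0.13 for Cd74 with H2-DMa. These coefficients are descriptions over libraries and spots that share sections and depth.

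The wider pathway was only in part higher in Q1. Of 6 genes of endosomal processing, 5 were called higher than in Q4 and 0 lower, with a median log2 difference of 1.28. Cathepsin S (Ctss), which trims the invariant chain in antigen-presenting cells, had 3.50 ± 0.38 (adjusted p = 1.29e-05), and the thiol reductase Ifi30 had 2.30 ± 0.23 (adjusted p = 4.27e-06). Cathepsin D (Ctsd), an aspartic protease of lysosomes in most cells, had 0.43 and did not pass (adjusted p = 0.105). The other class II chains H2-DMb2, H2-Eb2, H2-Oa and H2-Ob had 95, 3, 26 and 35 UMIs in all sections and were not tested.

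Of transcription factors that act on class II or Ciita promoters, the myeloid factors Spi1 (2.37 ± 0.24) and Irf8 (1.99 ± 0.32) were called higher, as were Nfya (0.64) and Nfyb (0.68), which encode Y box binding subunits. The third subunit of the same trimer, Nfyc, was lower (−0.71 ± 0.15, adjusted p = 0.00100). The X box factors Rfx5 (0.84, adjusted p = 0.0829), Rfxap (−0.14, 0.600) and Rfxank (−0.27, 0.203) did not pass, nor did Irf1 (0.46, 0.121) and Creb1 (0.12, 0.569). Ifng, the cytokine that induces Ciita in macrophages, had 0 UMIs in all 4 sections, which allows up to 0.323 CPM in the shallowest. Of its signal, the kinase gene Jak2 was higher (0.87 ± 0.17, adjusted p = 0.00044) and the receptor gene Ifngr2 lower (−0.78 ± 0.16, adjusted p = 0.000868). Ifngr1, Jak1, Gbp2 and the target Cxcl9 (−0.11, adjusted p = 0.845) were not called. Of the 4 costimulatory genes tested, Cd86 was higher (1.85 ± 0.32, adjusted p = 0.000203) and Cd40, Icosl and Cd274 were not called. March1, whose ligase marks class II for degradation, was higher (2.31 ± 0.62, adjusted p = 0.00544), and March8 was not called (0.27).

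Transcripts of several cell types had the same direction in Q1. All 10 macrophage markers were called higher, with a median log2 difference of 1.65, among them Cd68 (2.54), Adgre1 (2.34), Csf1r (1.33) and C1qa (1.55). The 4 tested markers of resident macrophages, Lyve1, Folr2, Cd163 and Vsig4, were not called (median 0.18). Monocyte (4 of 4), neutrophil (3 of 3), fibroblast (4 of 5) and B cell (2 of 2) markers were called higher, as were 3 of 4 of mesothelium, and the 5 cardiomyocyte genes were lower, of which Myh6 and Myl2 had set the bins. Of 5 endothelial genes, Kdr and Fabp4 were lower and 0 higher. The 10 dendritic cell markers summed to between 7.14 and 46.2 CPM over the 16 libraries. Itgax (CD11c) was higher (4.90 ± 0.59, adjusted p = 1.56e-05), on 121 UMIs in all sections, and Zbtb46 was not called (−0.07). Flt3, Xcr1, Clec9a, Cd209a, Ccr7, Batf3, Irf4 and Siglech had between 11 and 64 UMIs in all sections and were not tested. The 8 T cell markers had between 12 and 77 UMIs each and were not tested. The part of each cell type in the class II levels was not tested.

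Among 4766 other genes with at least 1000 UMIs, those most like the summed members over the 16 libraries were Ltbp2 (r = 0.98), Fn1 (0.97), Col12a1 (0.97), Lox (0.96), Rps27, B2m, Postn, Ifngr1, Mpeg1 and Aebp1 (all 0.96). The median r of all these genes was 0.61. B2m encodes the light chain of MHC class I and Mpeg1 a pore-forming protein of macrophages, while Fn1, Postn, Lox and Col12a1 belong to the matrix of the scar. Across spots within sections, the 10 most alike were Lyz2 (mean r 0.48), Actb (0.46), Ftl1 (0.45), Fn1 (0.45), Sparc (0.45), Eef1a1, Tmsb4x, Bgn, Col3a1 and Col1a1 (0.44 for each of the last 5), against a median of 0.02 over all genes. Fn1 was the 1 gene in both sets.

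In the day 7 section, 116 spots (6.28%), 113 of them in Q1, held over 1% of UMIs from fast skeletal muscle genes such as Myh1 and Tnnc2, and no spot of another section did. The class II level of the 113 spots was 327.3 CPM (277.3 to 383.7), against 1160 CPM (1095 to 1229) in the other 349 spots of that Q1, so these spots lowered the Q1 level of day 7. With the spots ranked again without them, Q1 of day 7 held 1002 CPM (950.7 to 1056). Without them, 6 of 6 members were still called higher in Q1, beside 3227 of 11579 genes. In Q2 it was 4 of 6 members, beside 261 of 11579 genes. Day 7 then stood at 2.29 times day 1.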

How the data were processed

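Tables of UMI counts per gene and spot were deposited for 4 Visium sections. Per the labels, sections were 10 µm thick and fresh-frozen, and the authors' processing notes name Space Ranger 1.3.0, Seurat 4.1.1 and build mm10. The deposited counts are raw, before the authors' normalisation to each spot's total. Spots with over 1% hemoglobin UMIs were removed, since blood takes UMIs from other genes. The paper also left out spots near the tissue edges, which were kept here, and how many of them fell in Q1 was not counted. Bins of spots were summed into 16 libraries of 1470333 to 4738818 UMIs, genes with at least 100 UMIs were kept, and edgeR 4.0.16 (TMM, quasi-likelihood, section as a block, Benjamini-Hochberg threshold 0.05) was fitted to all of them. DESeq2 1.42.0 was an alternative. The scripts were tested on simulated counts. Level intervals are 95% Poisson intervals, ratio intervals are 95% intervals of counting, and both cover counting error only. UMIs of neighbouring spots may mix by diffusion. With 1 section per day no day has replicates. The p-values of edgeR measure how far the bins vary between sections of different days, pooled over all 4 bins with 9 residual degrees of freedom. Pathway and marker lists, and the members, were chosen with earlier results of these data known. March1 and March8 were matched by these older symbols. Named genes were the members, genes of these lists, and the 10 other genes with at least 1000 UMIs most correlated with the summed members by each measure (16 libraries, spots). Some genes of these lists are not reported here.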

Additional observations from a re-analysis of the deposited data

Results flagged for a closer look

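The spots left out for hemoglobin also held class II transcripts, at 79.9 CPM at day 1, 299.5 at day 4, 289.9 at day 7 and 247.2 at day 14, each above the limit that a count of 0 allows there. At day 14 this was above the 109.5 of the remaining spots, and at day 1 below their 148.3.

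With Csf1r, C1q and the 10 macrophage markers, the Q1 to Q4 difference in class II per UMI ran in opposite directions in different sections. Each such difference had a counting interval that left out 0. This was not so with Cd68, where only day 4 left out 0. Nor was it so with Adgre1, where days 4 (−1.28) and 7 (−0.80) left out 0, both below it. The difference between sections was not tested. Per Csf1r UMI the log2 difference was 2.03 at day 1 and 0.66 at day 7 but −0.46 at day 4. Per UMI of C1qa, C1qb and C1qc it was 2.16 at day 1 and −0.27 at day 4. Per UMI of the 10 macrophage markers it was 1.22 at day 1, −1.20 at day 4 and −0.26 at day 7.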

How the results depend on the processing

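Against the 6 members called higher in Q1, 3 were called when genes needed 1000 UMIs, since only 3 were then tested. With no section block 5 were called, where H2-Eb1 was lost, and 5 to 6 when 1 section was left out. Of all genes, 1679 of 4769, 2843 of 11621 and between 2100 and 3032 were called higher in this order. Against the 4 called in Q2, 0 were called with no section block, 2 with no hemoglobin filter, 2 with spots ranked on Tnnt2, Tnni3 and Actc1, 3 with genes of at least 1 UMI, where Cd74 was lost (adjusted p = 0.0597), 3 of 3 tested with genes of at least 1000 UMIs, and 0 to 5 when 1 section was left out. Of all genes, 370 of 11621 were called higher in Q2 in the main fit and 0 of 11621 with no section block. With no hemoglobin filter it was 364 of 11783, and with the other ranking 35 of 11621. With genes of at least 1 UMI it was 344 of 19176, and with at least 1000 UMIs 160 of 4769. The cause was not tested. Differences between Q3 and Q4 were not called and changed sign for H2-Eb1 with a 0.5% hemoglobin limit (−0.083), no TMM factors (−0.035), no hemoglobin filter (−0.13), no section block (−0.083) and the other ranking (−0.17). With 1 section left out, they ran from −0.27 to 0.10 for H2-Eb1, from −0.071 to 0.23 for H2-DMa and from −0.33 to 0.93 for H2-DMb1, and H2-Eb1 in Q2 from −0.046 to 0.38.

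The class II level of day 14 over day 1 (0.738) was 0.845 with no hemoglobin filter, 0.668 without spots under 1000 UMIs, 0.800 without Cd74 and 0.642 without H2-Eb1. Day 7 over day 1 (2.29) was 2.55 with the 0.5% limit. Per macrophage UMI, day 14 over day 1 (2.27 for Cd68) was 0.930 for Csf1r, 0.906 for Adgre1, 0.774 for C1q and 0.862 for 10 markers. Day 7 over day 1 (3.07) was 1.3, 1.00, 0.903 and 0.957 in this order. Day 7 over day 4 in Q1 (5.49) was 2.18, 1.98, 1.52 and 2.35. The mean log2 difference between Q1 and Q4 per Cd68 UMI (−0.48) changed sign for Csf1r (0.65) and C1q (0.47). It stayed below 0 for Adgre1 and for 10 markers. With 1 section left out, the mean per Cd68 UMI ran from −0.72 to −0.045. Omission of H2-Eb1 or of the skeletal muscle spots, and the results on day 7 and on H2-Eb1 per H2-Ab1 UMI, were added after the data were seen. The bins were paired within sections by the block, while days have 1 section each and could not be paired. Counts of Ciita and of H2-Eb1 before day 14 limit what can be said of them.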
